A study of Caenorhabditis elegans with 2 samples.

Results

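The heterochronic genes considered here are 9 protein-coding regulators of larval timing, lin-14, lin-28, hbl-1, lin-41, lin-29, lin-42, lin-46, lin-66 and daf-12, taken by name from 19973 annotated protein-coding genes of Caenorhabditis elegans. Their occupancy by LIM-7, an Islet-type homeodomain protein with LIM domains, was read from ChIP-seq peaks (sequencing of DNA that comes down with a protein in immunoprecipitation) of whole L4 larvae, 48.5 hours old. Both samples were biological replicates of 1 group, so there was no comparison between conditions. All animals were of strain OP779, which carries unc-119(tm4063) together with an integrated transgene (wgIs779) of lim-7 fused to TY1, EGFP and 3xFLAG and a rescuing unc-119(+). The cultures had been synchronised by starving first-stage larvae after bleaching, chromatin was fragmented by sonication, and tagged LIM-7 was precipitated with an antibody against GFP. The labels record no deletion of the animals' own lim-7, and whole animals do not show in which cells a site was bound.

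Heterochronic genes set which stage-specific programme the cells of the larva carry out. LIN-14, LIN-28 and HBL-1 hold early programmes in place, the microRNAs lin-4 and let-7 with its relatives lower them in turn, and LIN-29 then triggers the switch to adult skin fate around the final moult. LIN-41 keeps LIN-29 low until let-7 acts, LIN-42 is the worm's relative of the circadian protein Period, and the nuclear receptor DAF-12 ties the sequence to steroid hormone and diet.

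In the main list of peaks, made by the authors from both replicates, 3 of the 9 genes held a summit between 2000 bp upstream of the gene start and the gene end, which is called the gene window below. These were lin-66, daf-12 and lin-46, against 8.43% of all protein-coding genes. One more gene, lin-14, held a summit in the conservative list alone. The sequences around these 4 summits are shown because the positive results rest on them. They are from the RefSeq WBcel235 genome (ce11 coordinates), plus strand, 5′ to 3′, and capitals mark matches, on either strand, to any of 8 short motifs that were searched: the homeodomain core TAAT with its longer forms TAATTA and TAATG, the repeats GAGAGA and also CGCGCG, the tRNA promoter element GTTCGA, and ACCACT as well as TGATAA. The lin-66 sequence is chrIV:13887587-13887686, upstream of the gene, and the daf-12 sequence is chrX:10637460-10637559, in an intron. The lin-46 sequence is chrV:12967983-12968072, upstream of the gene, and was cut to 90 bases to leave out transcribed sequence of a neighbour. The lin-14 sequence is chrX:11472086-11472185, in an intron.
lin-66: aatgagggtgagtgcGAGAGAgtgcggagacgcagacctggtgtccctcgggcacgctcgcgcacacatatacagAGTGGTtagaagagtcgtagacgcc
daf-12: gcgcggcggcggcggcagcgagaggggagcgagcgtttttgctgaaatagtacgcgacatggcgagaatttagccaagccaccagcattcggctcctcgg
lin-46: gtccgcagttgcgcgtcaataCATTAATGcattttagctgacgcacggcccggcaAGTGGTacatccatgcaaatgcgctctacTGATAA
lin-14: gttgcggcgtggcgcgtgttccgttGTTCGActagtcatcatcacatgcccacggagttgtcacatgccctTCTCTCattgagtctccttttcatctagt

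The lin-66 window held GAGAGA and, as its reverse complement, ACCACT. The lin-46 window held ACCACT as well, TGATAA, and TAATG on both strands of 1 palindromic stretch, in which TAAT overlaps it and was counted 2 times. The lin-14 window held GTTCGA and GAGAGA, and the daf-12 window held none of the 8 motifs. Over 100 bp around all 1804 summits of the main list, ACCACT stood in 17.6% of windows, GAGAGA in 12.1%, GTTCGA in 18.3%, TAATG in 8.98%, TAAT in 32.4% and TGATAA in 5.49%. TAATTA (0.942%) and CGCGCG (3.44%) were in none of the 4 windows. TAAT is a core that many homeodomain proteins bind, and among the 4 windows it was in that of lin-46. The 100 bp windows of daf-12 and lin-66 were rich in G and C, at 63.0% and 59.0%, while lin-14 was at 52.0% and lin-46 at 50.0%. The median over the main list was 51.0% with quartiles of 45.0% and 55.0%, so that daf-12 and lin-66 lay above the upper quartile and the others inside the quartiles. GC content and the motifs were not tested for a part in any peak.

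**Figure D1:**
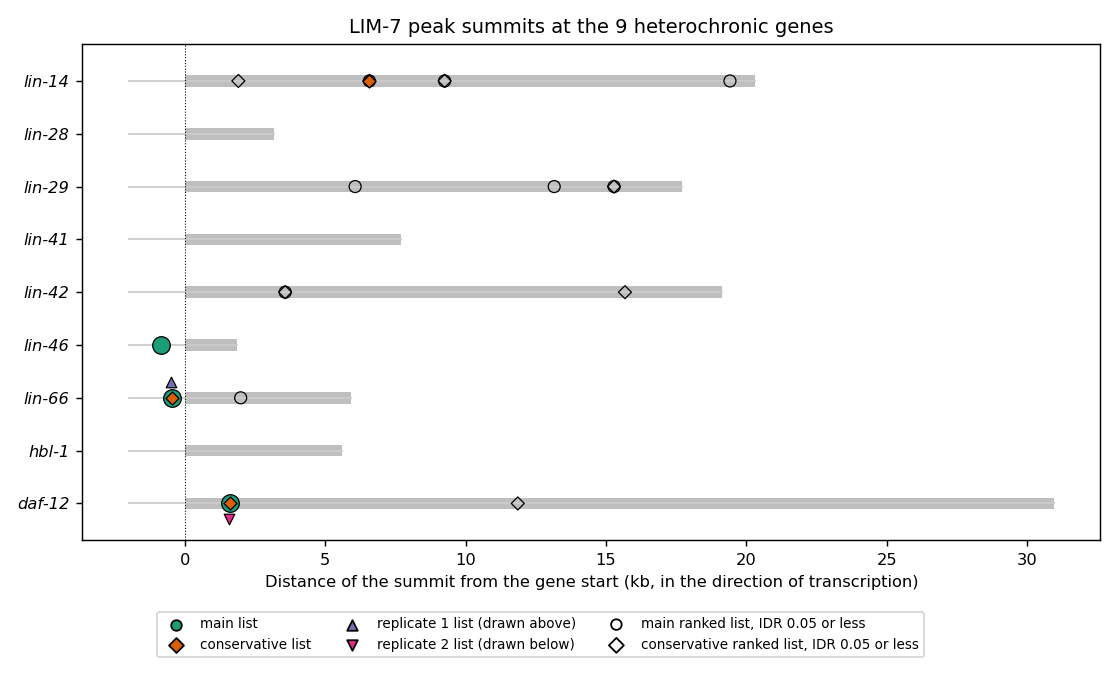
Positions of peak summits in the windows of the 9 genes, as distance from the gene start in kb, where the grey bar is the gene and the thin line its 2000 bp of upstream sequence. Filled markers are summits of the 4 thresholded lists and open markers are candidates of the 2 ranked lists of both replicates with an IDR of 0.05 or less: lin-66, daf-12 and lin-46 hold the filled circles of the main list, and lin-28, lin-41 and hbl-1 hold no marker.

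Peaks came in 4 thresholded lists, each with a ranked list of all its candidates. The main list held 1804 peaks of 84720 candidates and the conservative list, also from both replicates, 1649 of 84309. The list of replicate 1 held 883 of 66957 and that of replicate 2 held 920 of 76263. Thresholds were set on the irreproducible discovery rate (IDR), the share of peaks of a given rank or better that would not be expected to recur, and the global IDR of every thresholded peak was at most 0.01 in the matching ranked list. The signal values below are the authors', have no stated scale and are compared within 1 list at a time, where rank 1 is the highest signal. In the main list the lowest signal value was 3.26, the median 105 and the highest 822.

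The lin-66 gene promotes later larval fates by keeping LIN-28 low, and it had the summit closest to a gene start among the 9. The gene lies on the plus strand of chromosome IV at 13888079 to 13893986 (WBGene00001562), and the peak of the main list ran from 13887505 to 13887768. Its summit, at 13887637, was intergenic, 442 bp upstream of the gene start, and lay in no other protein-coding gene's window. The signal value was 105 in the main list, rank 896 of 1804, and the same summit ranked 893 of 1649 in the conservative list. In the list of replicate 1 the summit stood 481 bp upstream of the gene start with a signal value of 59.8, rank 721 of 883, and the list of replicate 2 did not hold the peak. The lin-66 peak was thus near the middle of the combined lists and low in the replicate 1 list, 81.7% of the way from its top. Among the candidates of replicate 2, before the threshold, it ranked 2092 of 76263, with an IDR of 0.130. The IDR of this locus was 0.00156 in the main ranked list, 0.00230 in the conservative one and 0.00391 in replicate 1. A further candidate in the coding part of exon 2 of the transcript B0513.1a.1, 1991 bp inside the gene, had an IDR of 0.0222 in the main ranked list and 0.160 in the conservative one.

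The nuclear hormone receptor gene daf-12, whose product binds dafachronic acids and controls let-7 family microRNAs, held the strongest member summit of the main list. It lies on the plus strand of chromosome X at 10635908 to 10666875 (WBGene00000908), and the peak ran from 10637378 to 10637641. The summit at 10637510 was 1602 bp inside the gene, in the first intron (10636055 to 10644409 are the flanking exon ends) of the 19-exon transcript F11A1.3e.3. No other annotated daf-12 transcript spanned that summit, and some, such as F11A1.3a.1, started downstream of it. The signal value was 125 in both combined lists, rank 671 of 1804 in the main list and 668 of 1649 in the conservative one. In the list of replicate 2 it was 71.1, rank 618 of 920, and replicate 1 did not hold the peak. Here the replicates stood the other way round than at lin-66. Among the candidates of replicate 1 the locus ranked 1324 of 66957, with an IDR of 0.150, and the IDR was 0.00113 in the main, 0.00135 in the conservative and 0.00271 in the replicate 2 ranked list. A second intronic candidate, 11862 bp inside the gene and 713 bp downstream of an internal transcript start, passed an IDR of 0.05 in the conservative ranked list alone (0.0308, against 0.150 in the main one).

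The lin-46 gene encodes a gephyrin-like protein that acts downstream of lin-28 and restrains HBL-1. It is the smallest of the 9 genes, on the plus strand of chromosome V at 12968855 to 12970730 (WBGene00003031), and the peak, from 12967891 to 12968154, was in the main list alone. The summit at 12968023 was intergenic, 832 bp upstream of lin-46, but only 41 bp upstream of the start of R186.8, which is transcribed in the opposite direction. The same summit also lay in the window of R186.3, so that 3 genes shared it and the peak cannot be given to lin-46 by position. The signal value was 77.3, rank 1639 of 1804, which is 90.9% of the way from the top of the list. The deposited q-value, on a −log10 scale where higher is stronger, was 1.04 in the main list. In that list it was 1.47 at lin-66 and 1.53 at daf-12. The candidate ranked 1461 of 66957 in replicate 1 with an IDR of 0.0148, and 10288 of 76263 in replicate 2 with an IDR of 0.255. Its IDR was 0.00657 in the main and 0.0279 in the conservative ranked list, on either side of the limit of 0.01.

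The lin-14 gene encodes the nuclear protein that specifies first-stage fates and is the classic target of the lin-4 microRNA. It lies on the plus strand of chromosome X at 11465560 to 11485871 (WBGene00003003). The conservative list held a peak from 11472004 to 11472267 with its summit at 11472136, 6576 bp inside the gene, in intron 3 of the 12-exon transcript T25C12.1a.1 (between exon ends at 11469606 and 11480781). No other annotated lin-14 transcript spanned that summit. The signal value was 75.2, rank 1554 of 1649, near the bottom of that list, and the −log10 q-value was 0.948. The locus had an IDR of 0.00697 in the conservative ranked list, 0.0204 in the main one, 0.0414 in replicate 1 and 0.486 in replicate 2. For lin-14 the conservative list therefore held a peak that the main list did not, the reverse of lin-46. A second candidate in the same intron, 9255 bp inside the gene, had an IDR of 0.0289 in the main ranked list. Another, in the 3′ UTR at 19419 bp and 153 bp from the start of the snoRNA gene T25C12.12, had an IDR of 0.0260 there. The last, 1909 bp inside the gene, was at 0.0461 in the conservative ranked list and at 0.128 in the main one.

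The other 5 genes held no summit in any of the 4 thresholded lists. The zinc finger gene lin-29, the switch to adult fate, lies on the minus strand of chromosome II at 11917642 to 11935343 (WBGene00003015). Its best candidate, at 11920053 in coding sequence 15290 bp from the gene start, had a signal value of 79.8 and rank 2174 in the main ranked list, above lin-46 at rank 2435 of the same list. Its IDR was nevertheless 0.0123, and 0.0134 in the conservative ranked list, just outside the limit that lin-46 met with 0.00657. At that locus replicate 2 ranked it 1724 of 76263 with an IDR of 0.346, and replicate 1 ranked it 6573 of 66957 with an IDR of 0.338. Further lin-29 candidates lay 13159 bp from the gene start, which is 746 bp upstream of an internal transcript start (IDR 0.0291 in the main ranked list), and 6068 bp from it (0.0467).

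The Period relative lin-42, whose product cycles with the moults, lies on the minus strand of chromosome II at 1233236 to 1252359 (WBGene00018572). Its best candidate was intronic, 3576 bp inside the gene, with a signal value of 73.9 and an IDR of 0.0309 in the main and 0.0239 in the conservative ranked list. A second, 289 bp downstream of an internal transcript start, had an IDR of 0.0323 in the conservative ranked list and 0.0884 in the main one. The lowest IDR anywhere in the lin-42 window was 0.0711 in replicate 1 and 0.226 in replicate 2. The gene thus had no candidate at 0.01 or less, and those at 0.05 or less were in the lists that combine the replicates.

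The TRIM-NHL gene lin-41, which let-7 represses, lies on the minus strand of chromosome I at 9334800 to 9342496 (WBGene00003026). Its lowest IDR was 0.0596 in the main ranked list, at a candidate 3404 bp inside the gene, 0.108 in the conservative one, 0.471 in replicate 1 and 0.125 in replicate 2. The gene for the Hunchback-like factor, hbl-1, lies on the plus strand of chromosome X at 5822142 to 5827755 (WBGene00001824). Its lowest IDR was 0.333, 0.378, 0.569 and 0.408 in the same order of lists. The gene for the RNA-binding protein LIN-28, which blocks let-7 maturation, lies on the minus strand of chromosome I at 8407630 to 8410804 (WBGene00003014). Its lowest IDR was 0.446, 0.336, 0.421 and 0.422, and the main ranked list held 1 candidate in its window. None of these 3 genes had a candidate at 0.05 or less in any list. Candidates were nevertheless listed at all 3 genes. The lin-41 candidate had a signal value of 74.9 and rank 2742 in the main ranked list. That was ahead of the mab-10 summit (72.9, rank 3062 of that list), which reached the main list. The best candidates of hbl-1 and lin-28 had lower signal values, 39.0 (rank 26185) and 31.1 (rank 39447) in the same list. All 3 values were above the lowest signal value of the main list, 3.26, and all 3 candidates were above the limit on IDR.

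**Figure D2:**
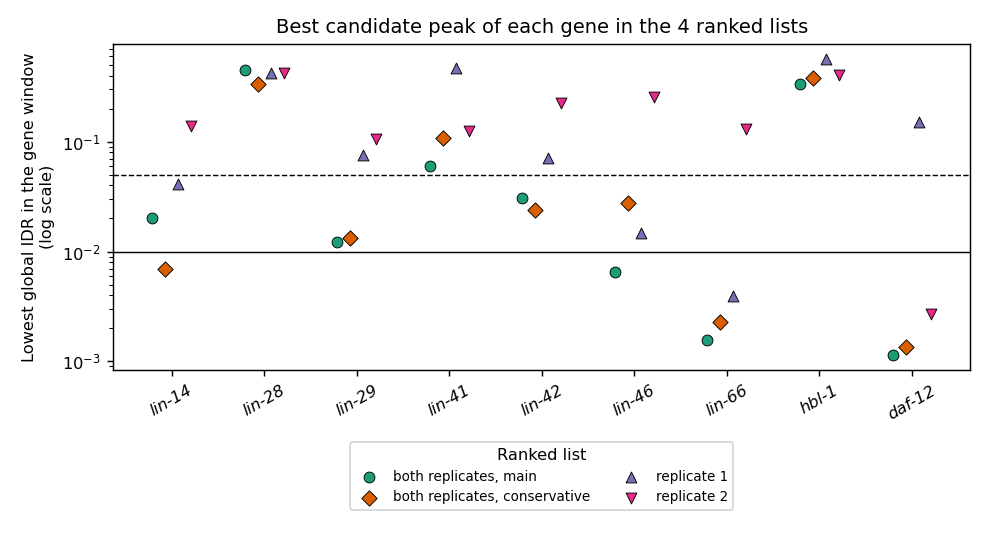
Lowest global IDR of any candidate in each gene's window in the 4 ranked lists, on a log axis, with lines at 0.01 (solid) and 0.05 (dashed). The points of lin-66 and daf-12 fall below 0.01 in 3 lists each, lin-46 and lin-14 do so in 1 list each, and every point of lin-28 and hbl-1 lies above 0.3.

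Counted over lists, the members that passed depended on the list. The main list held lin-66, daf-12 and lin-46, as stated, and the conservative list held lin-66, daf-12 and lin-14, also 3 of 9, against 7.71% of all genes. The list of replicate 1 held lin-66 (1 of 9, against 4.13%), and that of replicate 2 held daf-12 (1 of 9, against 4.29%). At least 1 of the 4 thresholded lists held a summit for 4 of the 9 genes, against 9.92% of all genes. No member had a summit in both replicate lists. The share of all genes with one in both was not counted but cannot exceed 4.13%, so none among 9 genes is near the background. At the looser IDR of 0.05, candidates were found for 6 of 9 genes in the main ranked list, lin-29, lin-42 and lin-14 being the additions, against 18.2% of all genes. The same 6 genes passed in the conservative ranked list, against 16.4%. In the ranked list of replicate 1 these were lin-14, lin-46 and lin-66 (3 of 9, against 7.20%), and in that of replicate 2 daf-12 (1 of 9, against 8.06%), which is close to the background. Summits between 1000 bp upstream and 200 bp downstream of a protein-coding transcript start were found for lin-66 and lin-46 in the main list (2 of 9, against 3.77%).

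The replicates ranked the same loci differently. The daf-12 locus was 0.966% from the top of the candidates of replicate 2 and 1.98% from the top of those of replicate 1. The lin-66 locus was 1.35% from the top in replicate 1 and 2.74% in replicate 2. Both loci were thus among the top 3% in each replicate, although each was past the IDR limit in only 1. They were taken from a list made from both replicates, which favours a high rank in each. The ranks are thus no independent check, and the share of other main-list peaks with such ranks was not counted. At lin-46 the values were 2.18% in replicate 1 and 13.5% in replicate 2, and at the intronic lin-14 locus 2.01% and 5.83%. The best lin-29 candidate was 9.82% from the top in replicate 1 and 2.26% in replicate 2, and the intronic lin-42 candidate 5.61% and 9.41%. The sources used here do not say which inputs the authors compared for an IDR within 1 replicate. IDR and rank did not always move together in these lists, and the reason was not tested. With 1 value per replicate the differences in rank have no test.

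**Figure D3:**
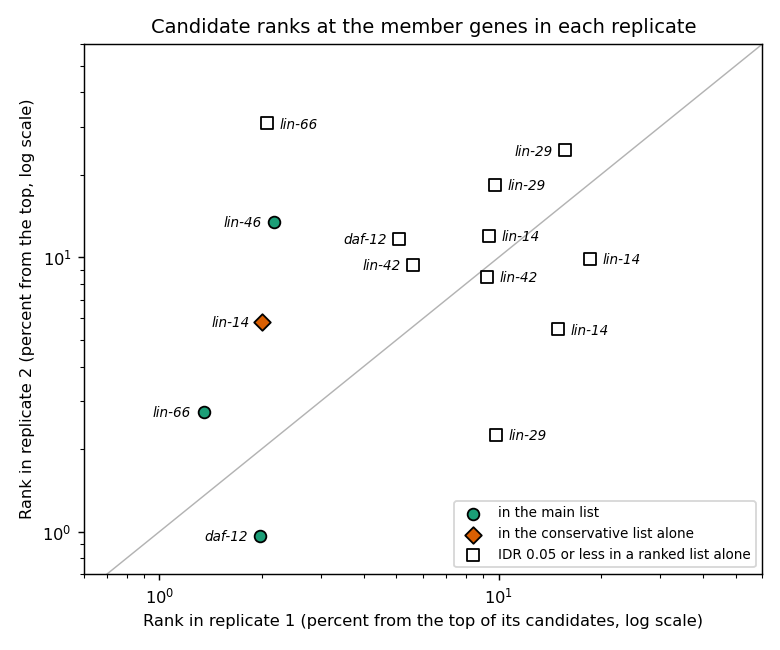
Rank of each member candidate in replicate 1 against replicate 2, as percent from the top of all candidates of that replicate, on log axes, with the line of equal ranks. The filled points of daf-12 and lin-66 lie within the top 3% on both axes, whereas lin-46 is at 2.18% in replicate 1 and 13.5% in replicate 2.

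The members have long windows, and longer windows hold a summit more often. Their windows had a median of 9697 bp, from 3876 bp at lin-46 to 32968 bp at daf-12, while the median over all protein-coding genes was 4027 bp. Among windows under 5000 bp, 6.60% of all genes held a main-list summit, and the 1 member in this class, lin-46, did. Among windows of 5000 to under 10000 bp the share was 11.0%, and 1 of 4 members, lin-66, held one. Among windows of 10000 bp or more it was 16.5%, and 1 of 4 members, daf-12, held one. This split was chosen after seeing the data. The 4 members with the longest windows, lin-14, lin-29, lin-42 and daf-12, were all among the 6 with a candidate at an IDR of 0.05. Per length, the 9 windows together held 3 summits in 130.4 kb, or 2.30 per 100 kb, against 1.79 per 100 kb over the joined windows of all protein-coding genes and 1.80 over the genome. A single summit in these windows amounts to 0.767 per 100 kb, which is more than the difference. With either replicate list the density was 0.767 per 100 kb, against 0.835 in replicate 1 and 0.858 in replicate 2 over all genes. Candidates of the main ranked list, with no limit on IDR, were at 1.36 per kb in the members' windows, 0.897 per kb over all gene windows and 0.845 per kb over the genome. They ranged from 0.193 per kb at lin-28 to 1.93 per kb at lin-14.

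Of the 1804 main-list summits, 546 lay within 500 bp of the start of a short noncoding gene (a tRNA, snRNA, snoRNA, miRNA or rRNA gene). None of the 3 member summits was among them. The nearest such gene was a tRNA gene for each, at 17372 bp from the lin-66 summit, 29583 bp from the daf-12 summit and 35557 bp from the lin-46 summit. For the members with no main-list summit, the nearest summit of that list was looked up outside the window or gene. At lin-29 it lay 920 bp beyond the gene end, in coding sequence of the neighbour hmg-12, with a signal value of 156 and rank 494. At lin-41 it lay 6329 bp outside the gene, in an intron of cbl-1 and 16 bp from the start of a tRNA gene, with a signal value of 191 and rank 350. At hbl-1 it lay 13495 bp beyond the gene end and was the summit 342 bp upstream of puf-9, described next. The distances were 12475 bp at lin-42, 22101 bp at lin-14 and 85133 bp at lin-28.

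Within the main list, the genes next in rank to the members were taken from outside the timing lists. The summit next above daf-12 lay in an intron of scc-2 (rank 670) and the one next below in the windows of stn-2 and unc-18 (rank 673). Beside lin-66 at rank 896 were a summit in the windows of erfa-3 and math-33 (rank 895) and one in an intron of plpr-1 (rank 897). Beside lin-46 at rank 1639 were a summit in F25H2.12 and tct-1 (rank 1637) and one in an intron of pigw-1 (rank 1640). All lay within 2 ranks of the member, and rank difference was the only measure of likeness.

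**Figure D4:**
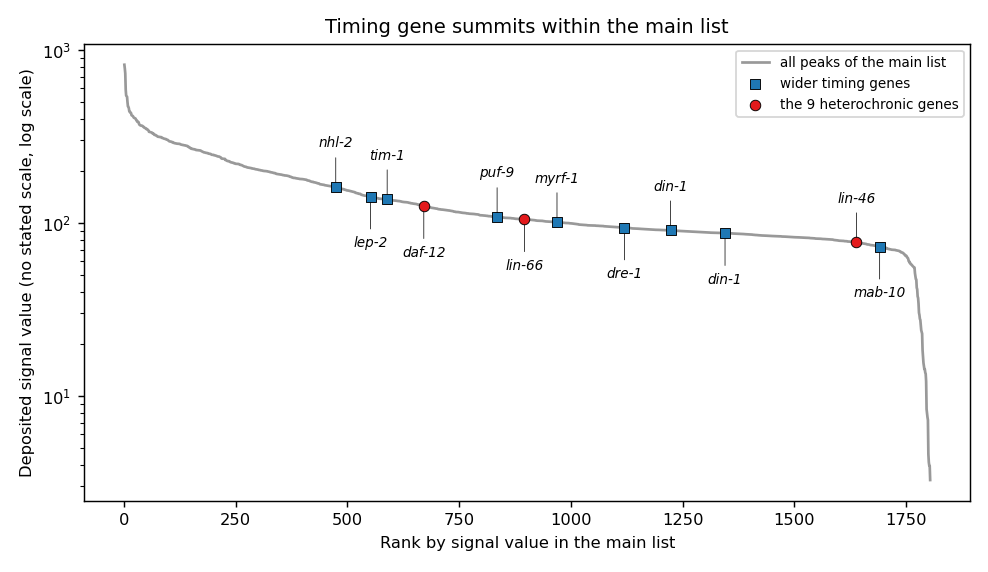
Signal value (no stated scale, log axis) of all 1804 main-list peaks by rank, with the 3 member summits as circles and the 9 summits of the wider timing genes as squares. The marked summits run from rank 474 (nhl-2) to rank 1691 (mab-10), with daf-12 at 671, lin-66 at 896 and lin-46 at 1639.

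Beyond the 9 members, 32 further genes of the timing pathway were examined in 5 classes. Of the 27 that are protein-coding, 8 held a main-list summit in their window, beside the background of 8.43%, and their median window was 8297 bp. By window length these were 0 of 2 under 5000 bp (all genes 6.60%), 5 of 17 from 5000 to under 10000 bp (11.0%) and 3 of 8 at 10000 bp or more (16.5%). There were 9 of 27 in the conservative list (all genes 7.71%), 3 in replicate 1 (4.13%), 4 in replicate 2 (4.29%) and 12 in at least 1 list (9.92%). In the main list 7 of 27 had a promoter summit, against 3.77%. Summit density was 3.51 per 100 kb in the main list, from 9 summits. None of the 5 timing microRNA genes (lin-4, let-7, mir-48, mir-84 and mir-241) held a summit in any thresholded list. Their windows, from 2075 bp (mir-84) to 3732 bp (let-7), fall in the class under 5000 bp. In that class 6.60% of protein-coding genes held a main-list summit, and the share over the 4 lists was not counted. The 4 genes used as readouts of the switch to adulthood (col-19, a cuticle collagen, mab-3, dmd-3 and apl-1) held none either. The share of all protein-coding genes in at least 1 list was 9.92%, so no summit among so few genes is near the background. In the main ranked list mir-241 had a candidate with an IDR of 0.0353 (0.0134 in replicate 2) and dmd-3 one with 0.0337. The windows of let-7 (3732 bp) and daf-36 (4198 bp) held no candidate of any IDR in the 4 ranked lists.

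Among the 8 genes grouped here with the microRNA machinery and its cofactors, nhl-2, puf-9 and lep-2 held main-list summits, all upstream of the gene start. The share of all protein-coding genes was 8.43%, and 11.0% for windows of 5000 to under 10000 bp, as these 3 have. The group was chosen by name and is wider than the machinery itself. The summit of nhl-2, a TRIM-NHL cofactor of the microRNA-bound Argonaute complex, lay 813 bp upstream at rank 474 with a signal value of 161. It was in all 4 thresholded lists. The summit also lay in the window of tag-340, whose start was nearer, at 610 bp, so it cannot be given to nhl-2 by position. The summit of puf-9, a Pumilio-family RNA-binding protein, lay 342 bp upstream at rank 835 (signal value 108), was in the main, conservative and replicate 1 lists and was shared with dct-11. The summit of lep-2, a Makorin relative, lay 795 bp upstream at rank 552 (signal value 142), was in both combined lists and was shared with egrh-2. The microRNA cofactor ain-1, a GW182-family protein, had a summit in the conservative and replicate 2 lists, and the Argonaute gene alg-1 had one in replicate 1 alone.

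Among the 9 transcription factors and partners, mab-10 and myrf-1 held main-list summits, against 8.43% of all protein-coding genes. Both have windows of 5000 to under 10000 bp, where the share was 11.0%. The summit of mab-10, the NAB-family cofactor of LIN-29, lay 360 bp upstream at rank 1691 (signal value 72.9) and was in the main list alone. Its −log10 q-value was 0.892. The summit of myrf-1, a membrane-bound transcription factor, lay 327 bp upstream at rank 969 (signal value 101) and was in both combined lists. The zinc finger gene sea-2 had a summit in the conservative list alone. The remaining 6, blmp-1, nhr-23, nhr-25, nhr-85, myrf-2 and grh-1, had none in any thresholded list.

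Among the 6 genes grouped here with LIN-42, LIN-29 and DAF-12, tim-1, dre-1 and din-1 held main-list summits. The share of all protein-coding genes was 8.43%, and 16.5% for windows of 10000 bp or more, as these 3 have. So few genes do not make this a trait of the class. The summit of tim-1, the worm's Timeless relative, lay 284 bp upstream at rank 589 (signal value 137), in the main, conservative and replicate 2 lists. It was 17 bp from the start of the snRNA gene sls-2.8. The summit also lay in the window of Y75B8A.23, whose start was nearer, at 212 bp, so it cannot be given to tim-1 by position. The F-box gene dre-1 had a summit in its coding sequence 11331 bp from the gene start, at rank 1120 (signal value 94.1), in the main list alone. The gene din-1, a corepressor of DAF-12, had an intronic summit 13449 bp from its start at rank 1223 (signal value 90.6), 135 bp from the start of the snoRNA gene F07A11.15. A second lay 1562 bp upstream at rank 1345 (signal value 87.3), 54 bp from the snoRNA gene ZK20.9. The casein kinase gene kin-20 had 2 summits in the conservative list alone, in overlapping peaks. Their signal values were 75.8 (rank 1548 of 1649) and 19.1 (rank 1639), and their −log10 q-values 0.974 and 0.0960. Without summits near short noncoding genes, tim-1 and din-1 dropped out and 6 of the 27 genes were left, whereas the members' count stayed at 3. Any part of those noncoding genes in the tim-1 and din-1 summits was not tested.

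**Figure D5:**
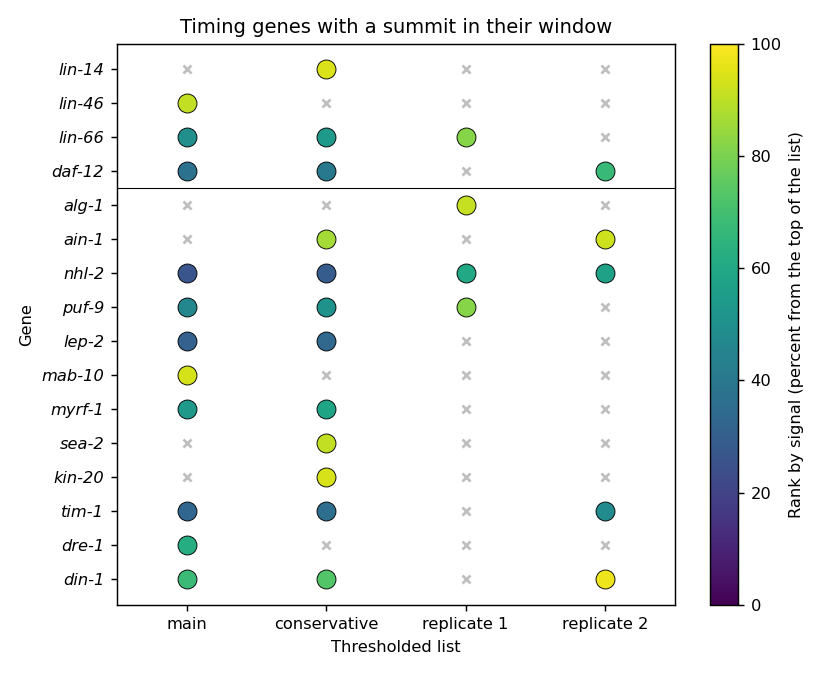
The 16 timing genes with a window summit in at least 1 of the 4 thresholded lists, the members above the line, with colour giving the rank of the strongest such summit as percent from the top of its list and crosses marking none. Of these 16 genes only nhl-2 has a summit in all 4 lists, one that also lies in the window of tag-340. The share of all genes with a summit in all 4 lists was not counted. The members lin-66 and daf-12 have one in 3 lists each.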

How the data were processed

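ChIP-seq peak lists of 2 biological replicates (1 group) were used as deposited. The deposited lists are in ce11 coordinates per the labels, and aligner, peak caller and settings were not given in the sources used here. A control experiment named in the labels was not analysed here. Read depth is unknown from peak lists, so no interval on depth is given. The signal column was made by the authors, is never negative and has no stated scale. The deposited score, capped at 1000 by the authors, was used in no result. The deposited q-values and the authors' local and global IDR scores are on a −log10 scale, and the IDR was converted back to a rate. The summit offset was deposited by the authors in bp from the peak start. The ranked lists of both replicates hold 16 further columns of single inputs, which were not used.

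Gene windows ran from 2000 bp upstream of the gene start to the gene end in the Ensembl 115 WBcel235 annotation, over 19973 protein-coding genes, and promoters spanned 1000 bp before and 200 bp after the starts of 31853 protein-coding transcripts. All peaks lay within the chromosome lengths of that build. Summits, IDR limits of 0.01 and 0.05 and motifs in 100 bp windows were counted with Python 3.11.15, pandas 2.3.3 and numpy 2.4.6. The window counts were tested on simulated data, where 200 of 200 planted genes among 19973 were recovered. The members and lists were chosen with earlier results of these data known, so counts are descriptions and no test was run. Named are all members, wider timing genes with a main-list summit, genes sharing a member summit, the nearest short noncoding genes, rank neighbours, and candidates with an IDR of 0.05 or less or, failing that, the best one. Genes of the wider list with a summit in another list alone were named after their values were seen, as were hmg-12, cbl-1 and the neighbours sharing a wider summit. Alternatives were the other lists, limits, windows, overlap rules and ranking column.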

Additional observations from a re-analysis of the deposited data

How the results depend on the processing

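With 1 of the replicate lists in place of the main list, the members with a window summit fell from 3 to 1 (lin-66 or daf-12), those with a promoter summit from 2 to between 0 and 1, the summits in the members' windows from 3 to 1, and the wider genes from 8 to between 3 and 4. Candidates of the main ranked list at an IDR of 0.05 gave 6 of 9 members and 15 of 27 wider genes, against 18.2% of all genes. They gave 11 member summits. The shares by window length were not counted at this limit. At 0.01 in place of 0.05 the candidate count was 3 in place of 6. The gene body alone kept 1 member (daf-12), whose summit only 1 annotated transcript spans. Promoter summits went to 1 with the conservative list, with the stronger part of the main list and with a promoter from 500 bp upstream to 100 bp downstream, and the wider genes to 4 with that stronger part. As percent from the top, lin-66 moved from 49.7 to 54.2 in the conservative list and 81.7 without replicate 2, and daf-12 from 37.2 to 40.5, to 67.2 without replicate 1 and to 20.2 when ranked by q-value. The causes were not tested. Shares of all genes were not counted for the gene body alone or for the other promoter settings. The members' window count stayed at 3 with the conservative list (lin-14 in place of lin-46), with any overlap of the peak, with windows from 5000 bp upstream and without summits near short noncoding genes, and was 2 with the nearest transcript start or the stronger part of the list. No paired analysis was possible because the study has 1 group. The members' counts rest on single summits, and read depth is unknown.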
